A study of Mus musculus with 2 samples.

Results

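The myogenic regulators and fusion genes are 10 genes, *Pax7*, *Pax3*, *Myf5*, *Myod1*, *Myog*, *Myf6*, *Mymk*, *Mymx*, *Cdh15* and *Chrna1*, which were named by their known function. They are 10 of the 31054 entries of the feature list. The study asked how Hedgehog signaling in *Sox9*+ lineage cells acts on repair of a resected rib, and single-cell RNA sequencing (scRNAseq) was used to compare callus cells of both genotypes at 4 days post injury (dpi). Muscle cells were taken as cells with 200 or more detected genes, under 10% of counts on mitochondrial genes, 3 or more unique molecular identifiers (UMIs, counts of captured transcripts) summed over *Pax7*, *Myf5*, *Myod1* and *Myog*, and 0 UMIs of *Ptprc*, the pan-leukocyte gene CD45. This gave 256 of 10057 filtered cells in the control library and 480 of 9507 in the *Smo* cKO library. Since *Pax7*, *Myf5*, *Myod1* and *Myog* chose these cells, their presence there is no result.

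Both groups carried the Sox9:CreER transgene, a tamoxifen-inducible Cre recombinase under control of *Sox9*, and the R26:tdTomato reporter of recombination. Control animals were *Smo* flox/+ and *Smo* cKO animals were *Smo* flox/flox, *Smo* being the transducer of Hedgehog signals, so that after tamoxifen recombined control cells still held 1 intact copy of *Smo*. Tamoxifen was given before surgery in a large-scale rib resection model, and the mice were adults. Callus was dissected away from most of the neighboring muscle, and cells of 3 animals per genotype were pooled into 1 library. There is 1 library per genotype, therefore no test compares the genotypes, and every interval below is a 95% interval that covers counting error only. Differences between animals, dissections and libraries cannot be told apart from the genotype.

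In muscle repair, quiescent satellite cells that carry *Pax7* become activated myoblasts with *Myf5* and *Myod1*, and these leave the cell cycle and differentiate under *Myog*. Differentiating myocytes then fuse to form multinucleated fibers, for which the membrane proteins myomaker (*Mymk*) and myomixer (*Mymx*) are required. *Myod1*, *Myf5*, *Myog* and *Myf6* are the myogenic regulatory factors, basic helix-loop-helix proteins that bind the E-box, CANNTG in DNA. Whole mature fibers are usually too large to be captured as cells in droplets.

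The filtered libraries had medians of 8367 (control) and 9092 UMIs per cell (*Smo* cKO), and muscle cells were deeper, with medians of 14910.5 and 13863.5 UMIs. Most muscle cells, 80.9% and 83.1%, had more than 2000 detected genes, the upper limit used in the study, which was therefore not applied here. *Smo* itself had 91 and 87 UMIs in muscle cells, which is 19.9 CPM (UMIs of the gene per 1000000 UMIs of the cells) for the control and 9.53 CPM for the *Smo* cKO. It was also lower in *Smo* cKO cells with *Ptprc*, at 8.57 and 4.36 CPM. Where a pair of values follows, the control comes first. The deleted part of *Smo* is not given in the sources used here, so these counts do not check recombination. *TdTomato* was nearly absent from muscle cells, with 2 and 16 UMIs (0.437 and 1.75 CPM). It was as rare in connective cells (collagen at 1% of UMIs or more), at 0.606 and 1.47 CPM, so these counts do not tell which cells had recombined. *Sox9* was found at 27.6 and 24.3 CPM in muscle cells, at 43.7 and 40.0 CPM in connective cells and at 19.8 and 14.3 CPM in cells with *Ptprc*.

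The libraries shared 613 cell barcodes. In 486 of these pairs (79.3%) the UMIs of the pair differed at least 20-fold, with medians of 602.5 and 37455 UMIs in the shallower and the deeper barcode. Of the muscle cells, 26 (control) and 72 (*Smo* cKO) had a barcode found in both libraries, and in 3 pairs both were muscle cells. Without any shared barcode 230 and 408 muscle cells remained, and several results below are given both with and without the shared barcodes.

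The label was checked with muscle genes that the selection did not use (*Chodl*, *Musk*, *Megf10*, *Fgfr4*, *Rapsn*, *Actc1*, *Myh3* and *Tnnt1*). At least 3 of their UMIs were found in 83.6% of muscle cells from the control and 81.0% of those from the *Smo* cKO. The same was found in 1.00% and 1.84% of connective cells (collagen at 1% of UMIs or more) and in 0.375% and 0.790% of hematopoietic cells (any *Ptprc*). The check is weaker for muscle cells with *Pax7* but no *Myog*, where these genes summed to 200 and 323 CPM. In those with *Myog* but no *Pax7* they summed to 2434 and 2482 CPM. The selection was less sharp at its edge. Of cells just outside, with 2 UMIs of the 4 genes, 3 or more UMIs of the other muscle genes were found in 49.3% of 67 cells (control) and 28.0% of 143 cells (*Smo* cKO). Just inside, with 3 UMIs, these were 54.1% of 37 and 46.2% of 52 cells, and with 10 or more UMIs 97.3% of 148 and 95.2% of 294 cells. Collagen transcripts made up 1% or more of UMIs in 36.7% and 32.3% of muscle cells, and the 7 connective marker genes summed to 16946 and 14662 CPM there. Of 7 hematopoietic markers 6 were detected, summing to 155 and 141 CPM, and *Ptprc* was at 0 by the selection. The 5 endothelial markers summed to 2.84 and 6.13 CPM, with *Emcn* and *Tie1* at 0 in the control, and the 4 glial markers to 5.69 and 3.29 CPM. The 5 mural markers summed to 1203 and 1669 CPM, nearly all of it *Acta2*, while *Myh11* had 0 and 4 UMIs. Of the other 3, *Rgs5* had 11 and 121 UMIs, a log2 ratio of 2.46 (1.57 to 3.50). *Notch3* had 92 and 247 UMIs (0.43, 0.08 to 0.79) and *Cspg4* 54 and 94 (-0.20, -0.70 to 0.31). The part of these transcripts in the values below was not tested.

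Muscle cells made up 2.55% (interval 2.25 to 2.87) of the control library and 5.05% (4.62 to 5.51) of the *Smo* cKO library, a difference of 2.50 percentage points (1.97 to 3.05). The share was higher in the *Smo* cKO under every alternative tried, with differences of 0.94 to 3.34 points, and of 2.15 points without shared barcodes. How much adjacent muscle was carried along in dissection was not measured, and with 1 library a genotype it cannot be told apart from the genotype.

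Promoters are shown for 3 members chosen with their levels known, *Chrna1*, which correlated with *Myog* over muscle cells (r = 0.51 control, 0.57 *Smo* cKO), *Myog* itself, and *Myf5*, which ran opposite to *Myog* (r = -0.47 and -0.55). Both *Myf5* and *Myog* chose these cells, so the selection itself lowers their correlation. They are RefSeq promoters on GRCm38.p6, 250 bases before to 50 bases after the start, 5′ to 3′ on the strand of the gene, with each E-box CANNTG in capitals. CANNTG reads the same on both strands.
*Myog*, chr1:134289754-134290053, plus strand: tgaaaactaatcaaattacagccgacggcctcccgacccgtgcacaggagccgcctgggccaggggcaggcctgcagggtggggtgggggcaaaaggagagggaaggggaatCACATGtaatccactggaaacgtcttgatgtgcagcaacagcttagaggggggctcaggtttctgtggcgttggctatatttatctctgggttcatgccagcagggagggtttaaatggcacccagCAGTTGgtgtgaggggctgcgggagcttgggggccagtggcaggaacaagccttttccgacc
*Chrna1*, chr2:73580289-73580588, minus strand: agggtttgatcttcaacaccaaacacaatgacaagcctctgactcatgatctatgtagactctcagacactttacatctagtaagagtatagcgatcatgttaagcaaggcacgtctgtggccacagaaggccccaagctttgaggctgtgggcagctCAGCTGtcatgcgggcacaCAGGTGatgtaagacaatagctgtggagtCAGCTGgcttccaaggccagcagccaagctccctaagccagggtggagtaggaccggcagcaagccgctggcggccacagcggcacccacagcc
*Myf5*, chr10:107486085-107486384, minus strand: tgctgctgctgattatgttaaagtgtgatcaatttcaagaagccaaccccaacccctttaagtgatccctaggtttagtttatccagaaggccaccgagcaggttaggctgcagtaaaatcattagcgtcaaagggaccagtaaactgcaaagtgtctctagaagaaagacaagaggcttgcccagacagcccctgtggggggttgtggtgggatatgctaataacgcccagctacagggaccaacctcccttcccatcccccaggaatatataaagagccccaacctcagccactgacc
The *Chrna1* window held 3 E-boxes, of which 2 read CAGCTG, the *Myog* window held 2 E-boxes and the *Myf5* window held none. Over 27025 promoters of this length, 72.1% held at least 1 CANNTG, 17.5% held 3 or more, and 1.75% held 2 or more CAGCTG. No match means only that these letters are not in this window. Of the 10 members 5 had a promoter in the table. The other 2 were those of *Cdh15*, with 4 E-boxes, and *Pax7*, with none. *Cdh15* also ran opposite to *Myog* (r = -0.20 and -0.27). The start used for *Cdh15* lay 408 bases and that for *Pax7* 560 bases from the GENCODE gene start. For *Myog* this distance was 15 bases, and for *Chrna1* and *Myf5* it was 0. Whether E-boxes in these windows go with the levels was not tested.

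*Pax7*, the paired-box factor of satellite cells, lies at chr4:139737062-139833528 (minus strand; all gene positions are GENCODE vM21 on GRCm38). It had 131 UMIs in control and 329 in *Smo* cKO muscle cells, or 28.7 CPM (24.0 to 34.0) and 36.0 CPM (32.2 to 40.1). The *Smo* cKO library was higher, with a log2 ratio of 0.33 (0.03 to 0.63), and the intervals of the levels overlapped. The ratio depended on which cells were counted, with 0.16 (-0.11 to 0.43) when 2 UMIs were enough for a muscle cell and 0.53 without shared barcodes. It was 2.02 when the cells were chosen after thinning each to 2000 UMIs, which left 104 and 233 muscle cells. At that depth *Pax7* was found in only 13 and 44 of the muscle cells chosen before thinning, so few cells with *Pax7* could be chosen. *Pax7* was detected in 27.3% and 34.2% of muscle cells (difference 6.82 points, -0.25 to 13.5).

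Its close relative *Pax3*, which acts in embryonic muscle precursors and lies at chr1:78101267-78197134, was close to the limit of detection, with 5 and 9 UMIs in all muscle cells. No order of the libraries could be read from these counts (log2 ratio -0.15, -1.88 to 1.78). Of the cells with *Pax3*, 3 of 4 and 5 of 8 also had *Pax7*.

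*Cdh15* encodes M-cadherin, an adhesion protein between satellite cells and fibers, and lies at chr8:122847966-122867397 (plus strand). It had 355 and 861 UMIs in muscle cells, or 77.7 CPM (69.8 to 86.2) and 94.3 CPM (88.1 to 101). The *Smo* cKO was higher by 0.28 on the log2 scale (0.10 to 0.46). This too depended on which cells were counted. The ratio was 0.96 in cells with at most 2000 detected genes and 0.47 without shared barcodes, and both intervals lay above 0. It was 0.15 (-0.02 to 0.31) with 2 UMIs as the threshold, 0.14 (-0.11 to 0.39) with 10 UMIs and 0.23 (-0.10 to 0.57) when cells were chosen after thinning, intervals that include no difference.

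*Myf5*, the early determination factor, lies at chr10:107482908-107486134, 6718 bases from *Myf6* (chr10:107492853-107494737), both on the minus strand. *Myf5* had 161 and 449 UMIs in muscle cells, or 35.2 CPM (30.0 to 41.1) and 49.2 CPM (44.7 to 53.9). The *Smo* cKO library was higher, with a log2 ratio of 0.48 (0.22 to 0.75). The ratio was 0.73 (0.44 to 1.02) without shared barcodes, 0.85 (0.05 to 1.71) in cells with at most 2000 detected genes, 0.27 (0.03 to 0.51) with 2 UMIs as the threshold and 0.13 (-0.51 to 0.80) when cells were chosen after thinning, an interval that includes no difference. *Myf6*, also called Mrf4, which is known as the regulator of mature fibers, had only 5 and 19 UMIs. Of its 5 control UMIs 3 were in 1 cell, while the 19 of the *Smo* cKO were in 19 different cells, and the interval of the ratio (0.93, -0.54 to 2.70) included no difference.

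*Myod1*, the determination factor of activated myoblasts, lies at chr7:46376474-46379099 (plus strand). It had 443 and 1135 UMIs in muscle cells, or 96.9 CPM (88.1 to 106) and 124 CPM (117 to 132). The *Smo* cKO was higher by 0.36 on the log2 scale (0.20 to 0.52), and in cells with at most 2000 detected genes the interval included 0 (0.23, -0.31 to 0.78). The shares of muscle cells with *Myod1* were 58.2% and 60.8%, with a difference of 2.63 points (-4.73 to 10.1).

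*Myog*, myogenin, the regulator of differentiation, lies at chr1:134289989-134292548 (plus strand). It had 4701 UMIs in control and 13992 in *Smo* cKO muscle cells, or 1028 CPM (999 to 1058) and 1532 CPM (1507 to 1558). The *Smo* cKO level was higher by 0.58 on the log2 scale (0.53 to 0.62), and by 0.67 without shared barcodes. The share of cells with *Myog*, which the selection partly sets, was 80.1% and 81.2% (difference 1.17 points, -4.62 to 7.40). This difference was -14.9 points (-27.3 to -0.22) in cells with at most 2000 detected genes and 6.02 points (-0.44 to 12.5) when muscle cells were defined without any member, so its direction depended on the cells counted. The UMIs per positive cell were higher in the *Smo* cKO. Cells with *Myog* had medians of 16 and 22 UMIs of it, and the most in 1 cell were 134 and 288. The 25 control and 48 *Smo* cKO cells with the most *Myog* held 37.1% and 41.3% of the *Myog* UMIs, and the level without the highest cell was 1002 and 1507 CPM.

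*Mymk* and *Mymx*, the fusion genes, lie at chr2:27061636-27072179 and chr17:45600971-45602102, both on the minus strand. Their ratios between the libraries lay below that of *Myog*. *Mymk* had 1063 and 1871 UMIs in muscle cells, or 233 CPM (219 to 247) and 205 CPM (196 to 214), a log2 ratio of -0.18 (-0.29 to -0.07). *Mymx* had 1087 and 2082 UMIs, or 238 CPM (224 to 252) and 228 CPM (218 to 238), a log2 ratio of -0.06 (-0.17 to 0.05). The interval for *Mymk* lay below 0 and that for *Mymx* included 0, but both depended on which cells were counted. The ratio of *Mymk* was -0.06 (-0.17 to 0.05) when muscle cells were defined without any member, -0.06 (-0.19 to 0.06) when they were chosen after thinning and -0.67 (-1.06 to -0.28) in cells with at most 2000 detected genes. That of *Mymx* was 0.06 (-0.05 to 0.16) without any member in the definition, -0.37 (-0.71 to -0.02) in cells with at most 2000 detected genes, -0.11 (-0.22 to -0.01) with 2 UMIs as the threshold and -0.13 (-0.24 to -0.02) with 10. *Mymk* was detected in 54.7% and 46.0% of muscle cells (difference -8.65 points, -16.1 to -1.06). This difference was -3.06 points (-10.1 to 3.66) when each cell was thinned to 2000 UMIs and -2.53 points when muscle cells were defined without any member.

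*Chrna1*, the alpha subunit of the muscle acetylcholine receptor, lies at chr2:73563215-73580338 (minus strand). It had 1187 and 2602 UMIs in muscle cells, or 260 CPM (245 to 275) and 285 CPM (274 to 296). The *Smo* cKO was higher by 0.13 on the log2 scale (0.03 to 0.23). The interval included 0 with 10 UMIs as the threshold (0.09, -0.02 to 0.20), without cells high in collagen (0.07, -0.05 to 0.19) and in cells with at most 2000 detected genes (0.13, -0.26 to 0.52). In all, 85.5% and 86.7% of muscle cells had at least 1 UMI.

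Of the 6 members at 50 CPM or more in either library (*Myod1*, *Myog*, *Mymk*, *Mymx*, *Cdh15* and *Chrna1*), 0 differed 2-fold or more between the libraries. Of all 2493 genes at this level in muscle cells, 18 (0.722%) were higher in the *Smo* cKO by 2-fold or more, and 11 (0.441%) were lower by as much. The median log2 ratio was 0.21 over the 6 members and 0.06 over all 2493 genes. *Myod1* (0.36) and *Myog* (0.58) had the highest ratios of the 6, and both also chose the cells. Those that did not choose them were *Cdh15* at 0.28, *Chrna1* at 0.13, *Mymx* at -0.06 and *Mymk* at -0.18. The median of the members is therefore partly set by selecting genes. *Myog* stood at percentile 97.7 of all ratios and *Mymk* at 12.5.

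**Figure D1:**
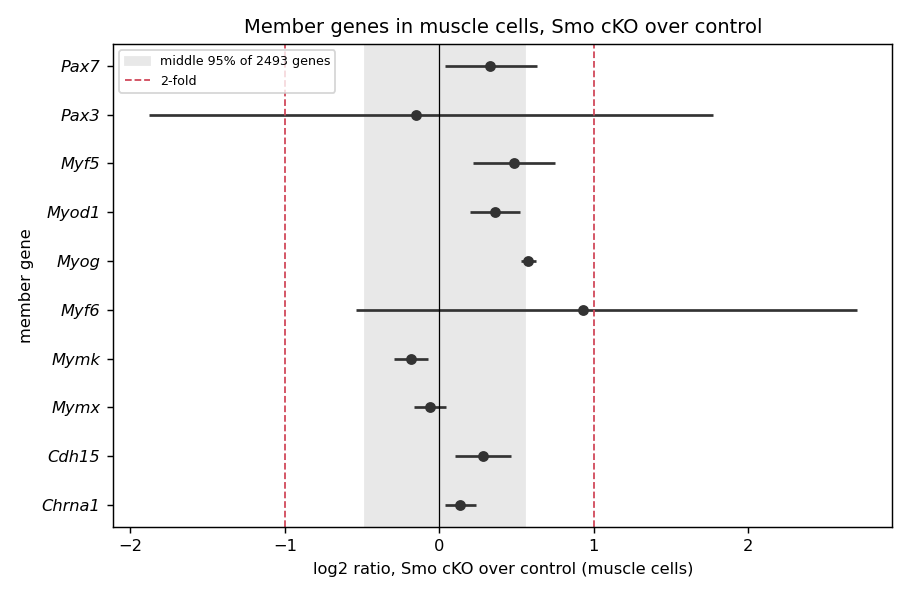
Points give the log2 ratio of *Smo* cKO over control in muscle cells for each member with its 95% interval, counting error only, the gray band the middle 95% of 2493 genes and dashed lines a 2-fold difference. *Myog* lies just above the gray band at 0.58, *Mymk* and *Mymx* lie left of 0, and the wide intervals of *Pax3* and *Myf6* rest on 5 to 19 UMIs.

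Outside muscle cells the members were found at low levels, and that of *Myog* differed between the libraries. *Myog* was at 3.50 and 10.0 CPM in hematopoietic cells, and at 3.89 and 9.60 CPM in connective cells. Thus the background of *Myog* in cells that should lack it was 1.52 higher on the log2 scale in hematopoietic cells (0.93 to 2.15) and 1.30 higher in connective cells (1.11 to 1.50). It was found in 2.25% and 6.71% of hematopoietic cells, with median depths of 3798 and 4117 UMIs, and in 4.67% and 13.1% of connective cells, with medians of 10698 and 13067 UMIs. At 2000 UMIs per cell *Myog* was found in 0.841% and 2.50% of hematopoietic cells against 62.8% and 59.1% of muscle cells. The level in muscle cells was 265 and 160 times that in connective cells. Since *Myog* chose the muscle cells, and connective and hematopoietic cells could hold only fewer than 3 UMIs of it, the selection partly sets these contrasts.

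The fusion genes also had a low background, with *Mymk* at 0.677 and 1.61 CPM and *Mymx* at 0.902 and 2.18 CPM in hematopoietic cells. There the interval of the log2 ratio included 0 for *Mymk* (1.25, -0.16 to 2.88) and lay above 0 for *Mymx* (1.27, 0.06 to 2.64). Of all UMIs of the fusion genes in filtered cells, 88.7% to 90.4% lay in muscle cells, and of *Myog* UMIs 91.0% and 90.6%. The share of *Myog* was partly set by the selection, which used it. Of the member UMIs in hematopoietic cells, *Myog* made up 43.1% and 39.0%, and in muscle cells 51.4% and 59.9%. *Pax3* had 0 UMIs in hematopoietic cells of either library, which allows up to 0.338 and 0.284 CPM.

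Several members were higher in the cells that belonged to no class than in hematopoietic cells. In the cells assigned to no class (neither *Ptprc*, collagen, endothelial nor muscle criteria) *Cdh15* was at 13.1 and 20.1 CPM, against 1.24 and 3.32 CPM in hematopoietic cells. *Chrna1* was at 12.6 and 18.8 CPM there, against 1.01 and 5.31 CPM. *Pax7* was at 3.28 and 3.55 CPM against 0.564 and 0.948 CPM, and *Myf5* at 3.47 and 3.84 CPM against 0.113 and 1.23 CPM. Of all *Cdh15* UMIs 53.9% and 55.7% lay in muscle cells. The unassigned cells included 69 (control) and 105 (*Smo* cKO) with 3 or more UMIs of the muscle genes outside the selection. These few cells held 55.1% and 54.9% of the *Cdh15* UMIs of the unassigned cells, at 145 and 198 CPM, levels above those of the muscle cells. *Chrna1* was at 130 and 187 CPM in them. *Pax7* was at 40.6 and 30.2 CPM and *Myf5* at 40.6 and 38.6 CPM in the same cells, and *Myog* was at 9.67 and 21.9 CPM. Their median depth was 5983 and 7021 UMIs, below that of the muscle cells. A cell with 3 UMIs of *Pax7*, *Myf5*, *Myod1* and *Myog* would have been a muscle cell, so the levels of these 4 genes here were limited by the selection.

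**Figure D2:**
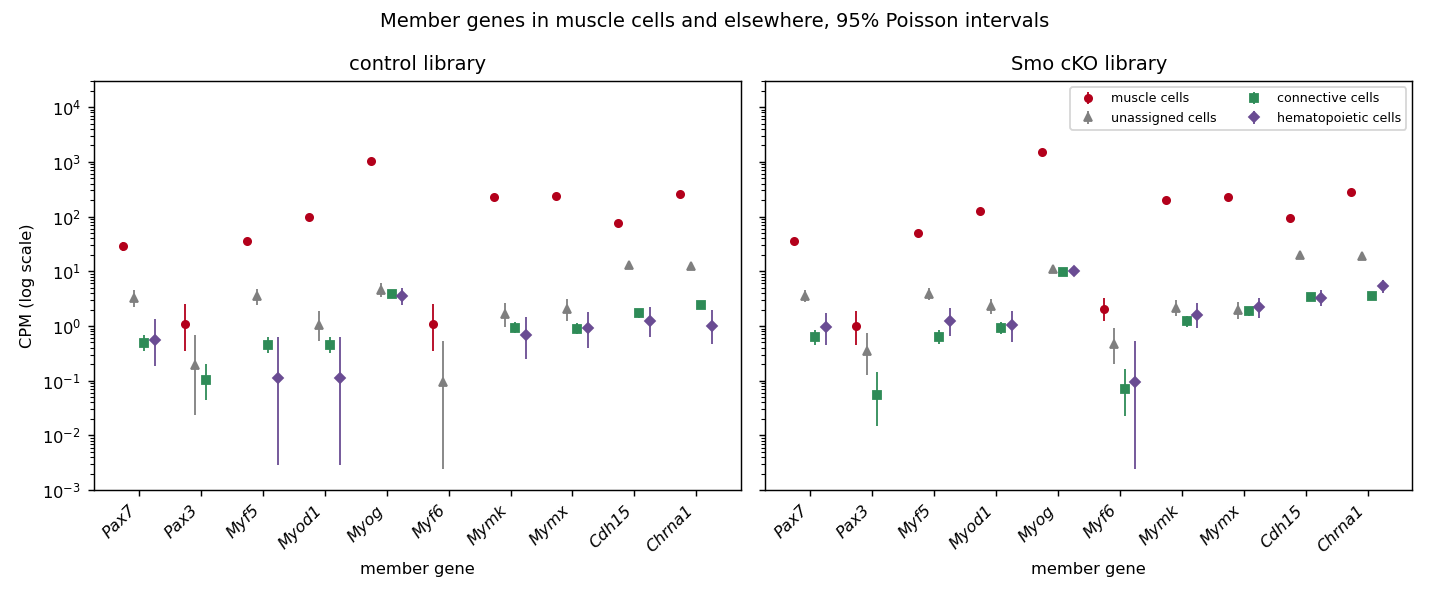
The log axis gives the CPM of each member with 95% Poisson intervals in muscle, unassigned, connective and hematopoietic cells of the control (left) and *Smo* cKO library (right), and a class with 0 UMIs has no point. Among these 4 classes every member was highest in muscle cells in both libraries, which for *Pax7*, *Myf5*, *Myod1* and *Myog* was set by the selection. *Cdh15* and *Chrna1* in unassigned cells lie above their levels in connective and hematopoietic cells.

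Muscle cells were next divided by detection of *Pax7* and *Myog*. Cells with *Pax7* only numbered 40 (15.6%) and 71 (14.8%). Cells with *Myog* only numbered 175 (68.4%) and 297 (61.9%), cells with both 30 (11.7%) and 93 (19.4%), and cells with neither 11 and 19. The share with both was higher in the *Smo* cKO by 7.66 points (2.07 to 12.7), while the differences for *Pax7* only (-0.83 points, -6.57 to 4.40) and *Myog* only (-6.48 points, -13.5 to 0.80) included 0. Cells with both were deep, with median UMIs of 28085 and 25681, against 14378 and 13717 for *Pax7* only and 13493 and 11690 for *Myog* only. At 2000 UMIs per cell, 2 control and 7 *Smo* cKO cells had both genes, a difference of 0.69 points (-1.50 to 2.33). The background of *Myog* in connective cells was also higher in the *Smo* cKO, as given above, and its part in the cells with both was not tested.

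**Figure D3:**
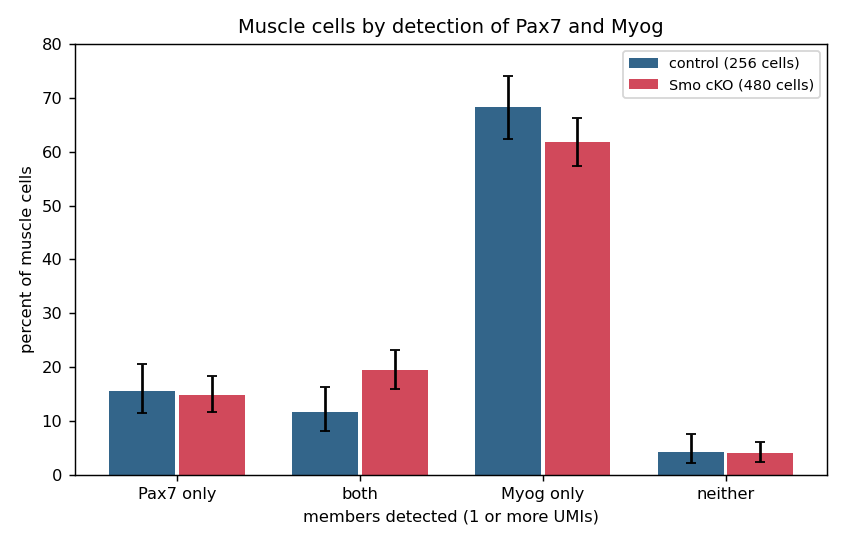
Bars give the percent of muscle cells with *Pax7* only, both genes, *Myog* only or neither, with exact 95% intervals, for 256 control and 480 *Smo* cKO cells. *Myog* only is the largest group in both libraries, and the share with both is 11.7% for the control against 19.4% for the *Smo* cKO.

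The product of the shares of *Pax7* and *Myog* was 21.9% for the control, where 11.7% of cells had both, and 27.8% for the *Smo* cKO, where 19.4% had both. A cell with neither gene needed *Myf5* or *Myod1* to be chosen, so the selection itself lowers such overlaps. By contrast *Pax7* and *Myf5* were found together in 19.1% and 24.8% of muscle cells, against products of 8.97% and 12.6%. The fusion genes were found together in 48.4% and 42.7%, against products of 35.7% and 27.5%. Cells differ in depth, which raises all such overlaps.

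Nearly all muscle cells with a fusion gene also had *Myog*. Of those with *Mymk*, 98.6% and 98.2% had *Myog*, and of those with *Mymx* 97.0% and 97.2%. In muscle cells without *Myog*, *Mymk* was found in 3.92% and 4.44% and *Mymx* in 9.80% and 8.89%. A cell without *Myog* needed 3 UMIs of *Pax7*, *Myf5* and *Myod1* to be chosen, so the selection partly sets these shares. Outside the selection, *Mymk* was found in 16 and 34 unassigned cells (0.764% and 1.38% of them). It was also found in 73 and 87 connective cells (1.16% and 1.76%) and in 6 and 17 hematopoietic cells (0.450% and 1.12%). Not every muscle cell with *Myog* had the fusion genes: 67.3% and 55.6% of cells with *Myog* had *Mymk* and 79.0% and 71.5% had *Mymx*. Of cells with *Mymk* 88.6% and 92.8% had *Mymx*, and of cells with *Mymx* 74.3% and 71.4% had *Mymk*.

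The levels followed the same order. *Mymk* was at 2.70 and 0.896 CPM in cells with *Pax7* only, from 2 and 1 UMIs, at 70.8 and 60.0 CPM in cells with both genes, and at 350 and 332 CPM in cells with *Myog* only. *Mymx* was at 5.40 and 4.48 CPM, at 63.1 and 69.7 CPM, and at 359 and 367 CPM in these groups. *Chrna1* was already at 104 and 138 CPM in cells with *Pax7* only and was at 324 and 369 CPM in cells with *Myog* only. *Cdh15* ran the other way, from 117 and 202 CPM with *Pax7* only to 55.6 and 59.1 CPM with *Myog* only. Between the libraries, *Cdh15* in cells with *Pax7* only was 0.78 higher in the *Smo* cKO on the log2 scale (0.42 to 1.15), and its interval in cells with *Myog* only (0.09, -0.19 to 0.37) included 0. The difference in cells with *Pax7* only was not particular to *Cdh15*. *Chrna1* was also higher there (0.41, 0.006 to 0.82), while the intervals of *Mymk* and *Mymx* included 0. *Myog* in cells with *Myog* only was at 1508 and 2450 CPM, a log2 ratio of 0.70 (0.65 to 0.75). Since *Myog* helped choose the cells and defined the groups, this is no separate result. *Mymk* in the same cells differed by -0.08 (-0.19 to 0.04).

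Cells were also grouped by *Myog* per 10000 UMIs. With 0 *Myog* there were 51 and 90 cells, with more than 0 and up to 2 there were 26 and 73, with more than 2 and up to 10 there were 75 and 94, and above 10 there were 104 and 223. The group above 2 and up to 10 held 29.3% of control and 19.6% of *Smo* cKO muscle cells, a difference of -9.71 points (-16.4 to -3.25). Across the 4 groups, in order, *Pax7* went from 86.1 through 28.5 and 14.6 to 5.97 CPM (control) and from 112 through 40.2 and 21.9 to 11.2 CPM (*Smo* cKO). Thus *Pax7* was lower at each step of the order in both libraries. Cells with 0 *Myog* had to hold 3 UMIs of the other selecting genes, so the levels of *Pax7*, *Myf5* and *Myod1* in that group were partly set by the selection. Other cells with fewer than 3 *Myog* UMIs also needed UMIs of these genes. The selection therefore partly sets the order of *Pax7* over the groups. *Myf5* went from 101 to 12.7 CPM and from 161 to 12.4 CPM between the first and the last group. *Myod1* was at 44.7 CPM with 0 *Myog* in both libraries and at 187 and 237 CPM above 10.

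Within the middle *Myog* groups, fusion genes were lower in the *Smo* cKO. Cells of such a group were alike only in the range of *Myog*, and its level within a group still differed between the libraries. *Myog* was at 110 and 87.1 CPM up to 2, at 562 and 504 CPM between 2 and 10, and at 2786 and 3912 CPM above 10. Between 2 and 10, cell cycle genes summed to 345 and 720 CPM and contractile genes to 9101 and 3243 CPM. Whether the cells of a group were at the same stage in both libraries was not tested. Collagen made up 1% or more of UMIs in 61.5% and 54.8% of cells up to 2 and in 53.3% and 59.6% between 2 and 10. Above 10 this was 17.3% and 15.7%. Barcodes found in both libraries were held by 5 and 22 cells up to 2 and by 9 and 24 cells between 2 and 10. The values of these groups are not given without such cells. *Mymk* was at 160 and 59.3 CPM between 2 and 10 *Myog* per 10000, a log2 ratio of -1.43 (-1.73 to -1.13). Above 10 it was at 547 and 530 CPM, a ratio of -0.05 (-0.17 to 0.08). Up to 2 it was at 105 and 9.19 CPM, but there 1 control cell held 62.3% of its UMIs, and without the highest cell of each library the levels were 41.2 and 1.97 CPM. Between 2 and 10 the levels without the highest cell were 144 and 48.7 CPM. *Mymx* between 2 and 10 was at 112 and 79.2 CPM, a ratio of -0.50 (-0.80 to -0.20), and above 10 it was at 652 and 575 CPM, a ratio of -0.18 (-0.30 to -0.06). The shares of cells with *Mymk* between 2 and 10 were 56.0% and 34.0%.

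The contractile gene *Acta1*, skeletal muscle actin, differed in the same groups, with 1914 and 526 CPM between 2 and 10 and 3401 and 2610 CPM above 10. A few cells carried much of it, and in the group between 2 and 10 the highest cell held 21.0% and 54.6% of its UMIs. *Myh4* and *Myh1*, myosins of mature fast fibers, were at 11.2 and 0.88 CPM and at 33.0 and 6.57 CPM in all muscle cells. The 7 mature fiber markers summed to 2552 and 1418 CPM, and the sum was higher in the control. Most of this sum was *Acta1* itself, at 1941 and 1074 CPM in all muscle cells, so the sum is no separate result. The part of such fiber transcripts in the differences of *Mymk* was not tested.

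**Figure D4:**
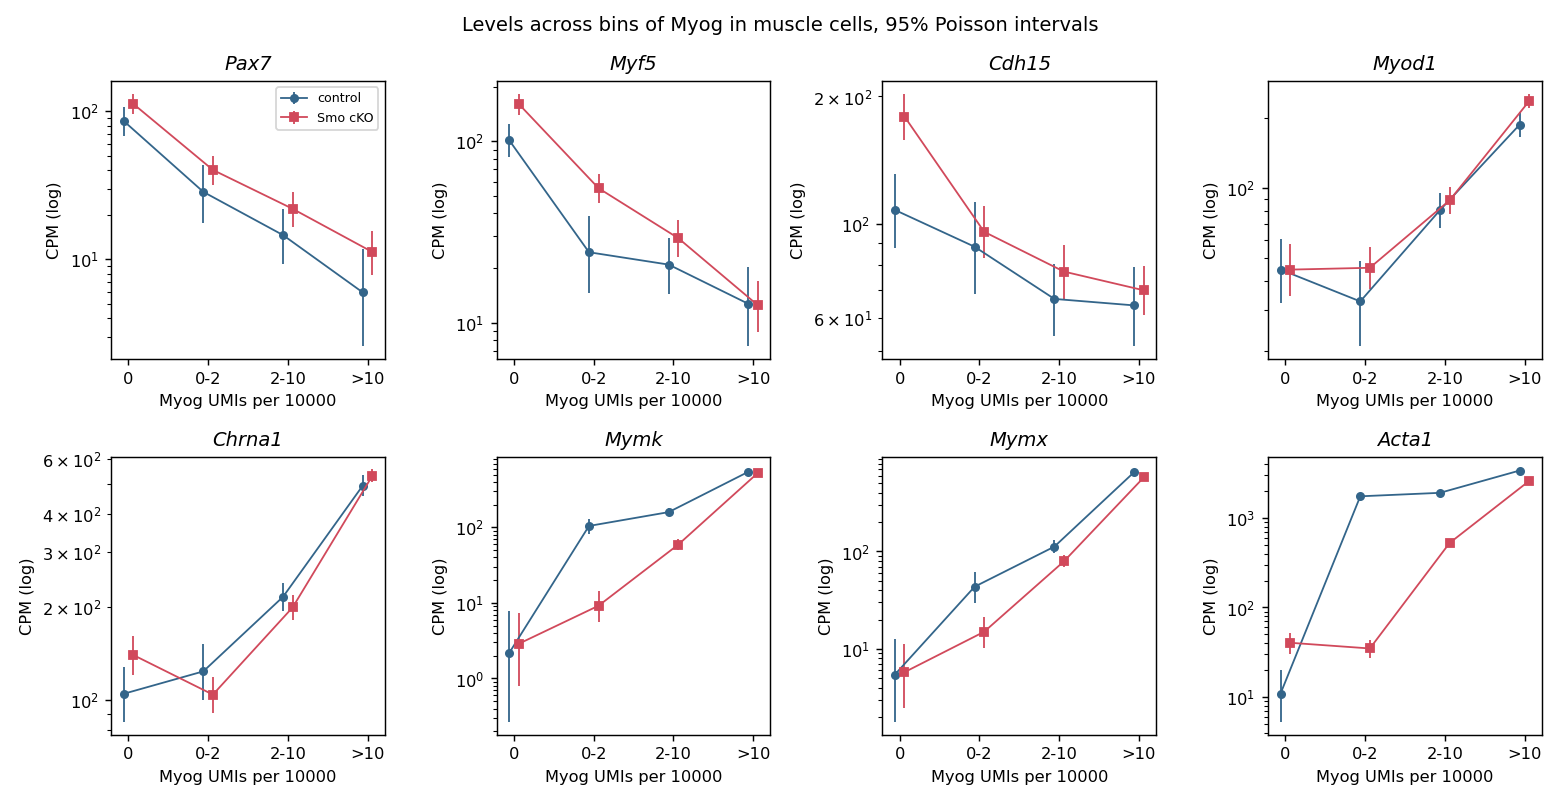
Panels give the level in CPM (log axes that differ between panels) of 7 members and *Acta1* in muscle cells grouped by *Myog* UMIs per 10000, with 95% Poisson intervals. In both libraries *Pax7*, *Myf5* and *Cdh15* are lower, and *Myod1*, *Chrna1*, *Mymk* and *Mymx* higher, above 10 *Myog* than at 0, and the libraries lie furthest apart for *Mymk* and *Acta1* in the middle groups. The levels of *Pax7*, *Myf5* and *Myod1* at low *Myog* are partly set by the selection.

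The cells richest in contractile transcripts were set apart by another measure. With the 17 contractile genes at 5% of UMIs or more there were 14 control cells (5.47%, 3.02 to 9.01) and 18 *Smo* cKO cells (3.75%, 2.24 to 5.86). *Mymk* was at 1037 and 1161 CPM and *Mymx* at 666 and 1070 CPM in these cells, while *Myog* was at 1718 and 5282 CPM. The 2 control cells at 10% or more had *Myog* at 236 CPM and *Mymk* at 1448 CPM. The 2 such cells of the *Smo* cKO had 2550 and 1174 CPM.

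Across muscle cells, levels of each gene were correlated as ln(1 + UMIs per 10000) with those of *Pax7*, *Myog* and *Mymk*, as a description over cells that share a library and differ in depth. Among members *Pax7* went with *Myf5* (r = 0.56 over 256 control cells and 0.53 over 480 *Smo* cKO cells) and *Cdh15* (0.37 and 0.41). *Myog* went with *Mymx* (0.75 and 0.81) and *Mymk* (0.70 and 0.75), and the 2 fusion genes went together (0.71 and 0.80). Of 10254 other genes found in at least 5% of control muscle cells, the 5 closest to *Pax7* were *Islr* (0.58), *Igfbp5* (0.50), *Heyl* (0.50), *Notch3* (0.47) and *Cav1* (0.46). In the *Smo* cKO these were 0.51, 0.59, 0.50, 0.47 and 0.44. *Heyl*, a target of Notch, and *Notch3*, a Notch receptor, are both known from satellite cells. *Notch3* was also 1 of the 5 mural markers, so it is not particular to satellite cells. The 5 closest to *Myog* were *Actc1* (0.79), *Svbp* (0.79), *Spg21* (0.77), *Tnnt2* (0.76) and *Lsm6* (0.71), with 0.78, 0.79, 0.78, 0.81 and 0.73 in the *Smo* cKO. The 5 closest to *Mymk* were *Actc1* (0.84), *Tnni1* (0.84), *Tnnt2* (0.81), *Svbp* (0.78) and *Acta1* (0.77), with 0.88, 0.84, 0.81, 0.74 and 0.78 in the *Smo* cKO.

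Other genes of the pathway were read by lists, counting genes at 50 CPM or more in either library. Of 15 satellite cell genes 7 reached this level, and 1 was higher in the *Smo* cKO by 2-fold or more, with a median log2 ratio of 0.14. That gene was *Heyl*, at 21.4 and 53.4 CPM (1.32, 1.00 to 1.65), which reached 50 CPM only in the library where it was high. Counted instead by the mean of both libraries, 6 satellite cell genes were at 50 CPM and 0 passed 2-fold, against 0.511% higher and 0.213% lower of 2349 genes. In the list, *Dag1*, the dystroglycan gene, was at 337 and 359 CPM. Of 16 cofactors and inhibitors 8 reached 50 CPM and 0 passed 2-fold, with a median of 0.05. *Id3*, which inhibits E-box factors by pairing with their partners, was at 251 and 455 CPM (0.86, 0.76 to 0.95). *Mef2c*, a partner of the myogenic factors, was lower in the *Smo* cKO at 199 and 131 CPM (-0.60, -0.73 to -0.48). The other receptor genes of the neuromuscular junction were low, with 1 of 8 at 50 CPM, *Rapsn* at 48.1 and 55.5 CPM. Of 10 fusion and adhesion genes 6 reached 50 CPM and 0 passed 2-fold, with *Itgb1* at 314 and 299 CPM and *Cav3*, muscle caveolin, at 171 and 99.1 CPM (-0.79, -0.93 to -0.65).

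All 17 contractile and other differentiation genes reached 50 CPM, with a median log2 ratio of -0.80. Of these 2 were lower in the *Smo* cKO by 2-fold or more, *Tnnc2* at 340 and 116 CPM and *Myh8* at 62.8 and 21.0 CPM, and 0 were higher by as much. Over all 2493 genes at this level 0.441% were lower and 0.722% higher by 2-fold or more. *Myh8* reached 50 CPM only in the control, and by the mean of both libraries 16 genes were counted, 1 was lower and the median was -0.64. In the control 1 cell held 33.5% of the *Tnnc2* UMIs, and without the highest cells the levels were 228 and 105 CPM. For *Myh8* 1 control cell held 33.8% of the UMIs, and without the highest cells the levels were 41.9 and 17.3 CPM, both under 50 CPM. *Actc1*, cardiac actin, which is made in early myotubes, was the exception at 862 and 1006 CPM (0.22, 0.17 to 0.28). Thus in levels summed over cells *Myog* was higher in the *Smo* cKO library while most of the contractile genes were lower. *Myog* also chose the cells, so the selection partly sets its side of this contrast. Among the contractile genes the interval of *Tnni1* (-0.05, -0.13 to 0.03) included 0. A few cells carried much of the contractile sums, and the 25 and 48 cells with the most *Acta1* held 75.3% and 76.8% of its UMIs. Cells with the 17 genes at 1% of UMIs or more made up 30.9% (25.3 to 36.9) and 24.6% (20.8 to 28.7), intervals that overlap. Of 12 cell cycle genes 4 reached 50 CPM and 0 passed 2-fold, with a median of 0.55, *Cdk1* at 32.6 and 55.0 CPM and *Top2a* at 87.1 and 111 CPM. *Cdk1* reached 50 CPM only in the *Smo* cKO, and by the mean of both libraries 3 genes had a median of 0.53. These medians do not stand for all 12 genes, and 48.0% and 46.7% of muscle cells had 3 or more UMIs of the list. Of 5 cell cycle inhibitors 2 reached this level, *Cdkn1c* at 1385 and 1849 CPM (0.42, 0.38 to 0.46) and *Cdkn1a* at 462 and 451 CPM.

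**Figure D5:**
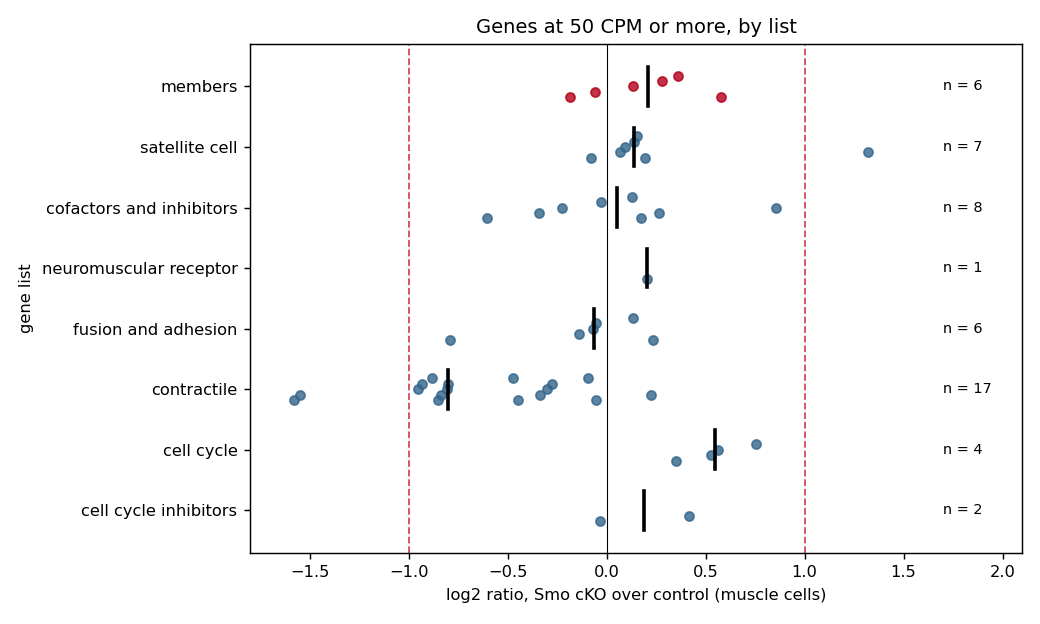
Points give the log2 ratio of *Smo* cKO over control in muscle cells for genes at 50 CPM or more in either library, by list, with black bars at the medians and dashed lines at 2-fold. The members, of which *Myod1* and *Myog* also chose the cells, have a median of 0.21. The contractile list lies mostly left of 0 with a median of -0.80, and the 4 of 12 cell cycle genes at this level lie right of 0.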

How the data were processed

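Per the labels and the study's methods, alignment was to mm10 by Cell Ranger 3.0.2, and the deposited values are raw UMI counts per gene and barcode that the authors did not normalize. Each library pooled 3 animals at 4 dpi. Columns of the matrices were matched to their barcodes and rows to their gene symbols. The members and all gene lists were chosen with earlier results of these data known.

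Cells with 200 or more detected genes and under 10% of counts on the 13 mt- genes were kept. Classes were set in order, as muscle (3 or more UMIs of the 4 selecting genes, 0 *Ptprc*), hematopoietic (*Ptprc*), endothelial (3 or more UMIs of *Pecam1*, *Cdh5* and *Emcn*), connective (*Col1a1*, *Col1a2* and *Col3a1* at 1% or more) and unassigned. Cells with muscle genes and *Ptprc* (9 and 25) formed a class of their own. CPM is the summed UMIs of a gene over the summed UMIs of the class, with exact Poisson intervals. Log2 ratios have exact conditional binomial intervals, shares Clopper-Pearson and differences Newcombe intervals, all at 95%. UMIs are not independent of cells, therefore intervals cover counting error only. Detection was repeated after thinning each cell to 2000 UMIs without replacement, leaving out 3 and 6 shallower muscle cells. For a count of 0 the limit is that of 3 counts.

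Genes named are the 10 members, from each list at most 4 examples by highest CPM or largest ratio at 50 CPM or more, *Smo*, *Sox9* and *TdTomato*, and the 5 genes most correlated with *Pax7*, *Myog* and *Mymk*. *Myh4*, *Myh1*, *Acta2*, *Myh11*, *Rgs5*, *Cspg4*, *Emcn*, *Tie1* and the split of the unassigned cells were added after their values were seen. Scrublet called 1 barcode a library (0.00930% and 0.00951%) and so has not worked, and doublets were not removed. Python 3.11.15, numpy 2.4.6, scipy 1.17.1, pandas 2.3.3 and scanpy 1.11.5 were used.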

Additional observations from a re-analysis of the deposited data

How the results depend on the processing

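The higher share of muscle cells in the *Smo* cKO, the count of 0 members past 2-fold, the lower *Mymk* detection and the higher *Pax7* and *Myog* co-detection kept their direction under the alternatives tried, except where stated. With the study's limit of 200 to 2000 genes only 49 and 81 muscle cells remained, the share difference was 0.94 points and *Mymk* detection differed by -25.8 points. There 1 of the 8 members at 50 CPM passed 2-fold, *Pax7* with a log2 ratio of 1.42. The share of all genes past 2-fold was not counted in this setting, and *Pax7* also chose the cells, so this count is no result about the members. The share difference was 3.34 points at 2 or more UMIs, 1.57 after thinning before the selection, 1.81 when muscle cells high in collagen were not counted and 1.62 at 10 or more UMIs. The last 2 alternatives, the shared barcodes, the mean over cells and the mean of both libraries as the filter on low levels were chosen after seeing the data. Co-detection of *Pax7* and *Myog* differed by 0.69 points at 2000 UMIs per cell. The ratio of *Mymk* in cells with *Myog* only, -0.08, was -0.36 under the gene limit, -0.24 at 2 or more UMIs and 0.046 at 5 or more. The cause was not tested in any of these. The detection of *Myf6* turned to -0.81 points under the gene limit, where counts are very low. The log2 ratio of *Myog* ranged from 0.29 to 0.68. Doublet removal left 256 and 480 muscle cells, since 1 barcode was called in each library. No paired analysis was possible because each genotype has 1 library. Depth limits *Pax3* and *Myf6*, at 5 to 19 UMIs, and all shares of cells with a UMI.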
